A study of Mus musculus with 16 samples.

Results

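The proteasome is the protease complex that degrades proteins tagged with ubiquitin. Its genes were followed here in stimulated regulatory T cells (Treg cells) of mice, on 16 gene arrays. Members were all genes with a single annotated symbol beginning Psma to Psmg followed by a digit, each by its brightest probe set. The rule found 49 of the 22180 genes with a single symbol, and all 49 passed the filter on dim genes. The values of 47 of them concern the proteasome itself; Psmc3ip, a meiotic recombination factor, and Psme3ip1, a protein that binds an activator, share only the symbol stem. Psma4, a core subunit gene, was measured only by probe sets that also carry another symbol, so it has no value here.

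All mice were C57BL/6 and carried Foxp3-Cre, a Cre recombinase expressed with the Treg cell transcription factor Foxp3, the controls included. Control cells were Atg7+/- (Atg7+/flFoxp3-Cre) and the others Atg7-/- (Atg7fl/flFoxp3-Cre); Atg7 encodes an enzyme that autophagy, the route of cell contents to the lysosome, requires. In each genotype 1 group came from untreated mice, with no vehicle stated, and 1 from mice given rapamycin, an inhibitor of the kinase mTOR, in daily intraperitoneal injections of 4 mg per kg over 5 days. Spleen and peripheral lymph nodes gave the CD4+Foxp3-YFP+ cells, sorted on either of a pair of sorter models, and their antigen receptor and CD28 were then stimulated for 4 hours on plates coated with anti-CD3 and anti-CD28. Each of the 4 groups held 4 arrays; the labels give neither the age and sex of the mice nor which replicates were separate mice.

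The proteasome has a barrel-shaped core of alpha and beta rings, in which the beta subunits encoded by Psmb6, Psmb7 and Psmb5 cut proteins. In lymphocytes and after interferon, Psmb9, Psmb10 and Psmb8 supply alternative cutting subunits, the immunoproteasome, which favours peptides fit for class I antigen presentation. A regulatory particle of ATPase (Psmc) and non-ATPase (Psmd) subunits receives, unfolds and deubiquitinates substrates, and other activators (Psme) can cap the core in its place. Dedicated chaperones build the core (Psmg1 to Psmg4, with Pomp) and the regulatory particle base (Psmd5, Psmd9 and Psmd10) and are not part of the finished complex. Autophagy and the proteasome are the major routes of protein degradation in the cell.

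The sequences upstream of 5 genes are shown because these genes stood among the members called below: 3 core assembly chaperone genes that differed between genotypes, and a pair of regulatory particle genes that were lower with rapamycin in both genotypes. Each is the 250 bases before the annotated start, from RefSeq on GRCm38.p6, written along the gene's strand. Capitals mark matches on either strand to the core of the antioxidant response element (TGACNNNGC), the CCAAT box, the GC box (GGGCGG) or a form of the Ets motif (CCGGAAG). The coordinates are chr16:95990961-95991210 on the minus strand for Psmg1, chr5:139826895-139827144 on the minus strand for Psmg3 and chr13:34162714-34162963 on the plus strand for Psmg4. They are chr11:106255935-106256184 for Psmc5, an ATPase gene, and chr11:107479278-107479527 for Psmd12, a lid subunit gene, both on the plus strand.
Psmg1: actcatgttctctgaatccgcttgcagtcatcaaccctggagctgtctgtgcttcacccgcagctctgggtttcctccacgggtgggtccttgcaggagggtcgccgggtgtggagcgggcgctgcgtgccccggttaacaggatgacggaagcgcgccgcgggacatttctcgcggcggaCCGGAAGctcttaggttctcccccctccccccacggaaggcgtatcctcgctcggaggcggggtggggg
Psmg3: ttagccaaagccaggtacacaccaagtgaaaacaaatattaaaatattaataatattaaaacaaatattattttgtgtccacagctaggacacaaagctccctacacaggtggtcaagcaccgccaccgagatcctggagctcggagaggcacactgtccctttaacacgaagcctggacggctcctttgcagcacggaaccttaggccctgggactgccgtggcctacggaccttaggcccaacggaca
Psmg4: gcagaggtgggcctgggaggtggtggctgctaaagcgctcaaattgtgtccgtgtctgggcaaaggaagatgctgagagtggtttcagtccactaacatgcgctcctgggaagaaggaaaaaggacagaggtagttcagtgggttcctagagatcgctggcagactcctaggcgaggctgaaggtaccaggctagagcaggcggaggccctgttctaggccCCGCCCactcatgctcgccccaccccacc
Psmc5: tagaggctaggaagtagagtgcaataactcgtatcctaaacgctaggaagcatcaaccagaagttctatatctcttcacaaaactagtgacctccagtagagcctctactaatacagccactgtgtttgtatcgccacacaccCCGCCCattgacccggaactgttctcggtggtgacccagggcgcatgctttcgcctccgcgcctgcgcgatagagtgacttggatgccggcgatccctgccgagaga
Psmd12: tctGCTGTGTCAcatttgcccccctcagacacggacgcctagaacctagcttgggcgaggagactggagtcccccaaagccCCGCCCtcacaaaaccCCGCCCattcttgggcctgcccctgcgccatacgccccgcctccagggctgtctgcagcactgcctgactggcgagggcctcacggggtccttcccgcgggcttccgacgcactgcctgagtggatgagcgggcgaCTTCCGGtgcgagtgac
The Psmg1 sequence held 1 Ets motif, 69 bases before the start, and the Psmg3 sequence held none of the motifs searched. The Psmg4 and Psmc5 sequences each held 1 GC box, and the Psmd12 sequence held 2 GC boxes, an Ets motif and an antioxidant response element core. Among the 41 members with an upstream sequence, 12 (29.3%) held CCGGAAG, against 7.05% of 27025 genes. GGGCGG was found in 21 members (51.2%) against 32.9%, CCAAT in 15 (36.6%) against 34.5% and TGACNNNGC in 5 (12.2%) against 10.1%. The matches marked do not overlap, and these 4 motifs were chosen for showing from 14 after their shares were seen. A match describes letters in this window and is not a binding site.

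Pearson correlations between arrays over the genes tested were 0.9733 to 0.9939. The array least like its group was rapamycin Atg7-/- replicate 3, at -29.83 on the second principal component against -12.88 to -7.567. It had the lowest array weight (0.428), followed by untreated Atg7-/- replicate 4 (0.58) and rapamycin Atg7-/- replicate 1 (0.62). Rapamycin Atg7+/- replicate 3 lay at 0.3535 on that component against 4.878 to 15.1 in its group. The Atg7 signal was 6.59 to 6.74 in untreated Atg7+/- arrays and 6.05 to 6.62 in untreated Atg7-/- arrays, and 6.67 to 6.85 against 6.02 to 6.73 under rapamycin. Neither difference passed the test (limma adjusted p = 0.299 and 0.232). Probes outside the deleted part would not show the deletion, and whether the probes lie there was not tested. All 8 Treg marker genes had group means of 8.16 to 12.1, whereas B cell markers lay at 2.96 to 5.35. The highest group means of a gene were 7.85 among CD8 T and NK cell markers and 7.13 among macrophage and monocyte markers. They were 6.55 among dendritic cell and 6.36 among neutrophil markers. In rapamycin Atg7-/- replicate 3, Lyz2, a macrophage and monocyte marker, read 7.94 against 4.45 to 6.19 in the rest of its group. The neutrophil markers S100a8 and S100a9 read 7.30 against 4.38 to 6.10 and 7.39 against 4.60 to 6.02. Ly6g, also a neutrophil marker, was lowest there (3.41), and Cd68 lay within its group (6.89). The mean over the 47 proteasome genes was 8.97 in that array against 8.71 to 8.81. Whether these are linked was not tested. Changes below are differences in log2 signal from one limma fit to all 16 arrays, with p-values adjusted over 16760 genes and calls made at an adjusted p under 0.05.

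Between genotypes in untreated mice, proteasome genes lay mostly higher in Atg7-/- cells, by small amounts. Of 49 members, 2 rose and 0 fell, where 3.14% of all genes tested were called (1.75% higher, 1.39% lower). The risers were both assembly chaperone genes, Psmg1 and Psmd5. The change was above 0 for 46 of 49 members, against 55.5% of all genes and 57.5% of the brightest 3352 genes, in which 35 members lie. Of those brightest genes, 5.19% were called (2.6% higher, 2.6% lower). The median change of the members was 0.154, against 0.0222 over all genes. In 22 members all 4 Atg7-/- arrays lay above all 4 Atg7+/- arrays, and in 0 below; over all genes 8.17% lay above and 5.97% below. The count of 2 became 0 without untreated Atg7+/- replicate 4 and 1 without untreated Atg7-/- replicate 2 or 3.

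Under rapamycin the genotype difference ran the same way. Of 49 members, 3 rose, the core assembly genes Psmg1, Psmg4 and Psmg3, and 0 fell, where 3.24% of all genes were called (1.91% higher, 1.33% lower). The change was above 0 for 47 members, against 53.6% of all genes and 59.9% of those brightest genes, with a median of 0.193 against 0.0166 over all genes. Of the brightest genes, 7.73% were called (4.83% higher, 2.89% lower). In 16 members the arrays did not overlap, all with Atg7-/- higher, against 6.01% higher and 3.76% lower among all genes. These contrasts share no array, and 45 of 49 members (91.8%) lay above 0 in both, against 36.3% of all genes. The members were read on the same arrays and are not independent, so this is not 49 separate agreements. The count of 3 was 1 without any 1 of untreated Atg7+/- replicate 2, untreated Atg7-/- replicates 1 and 3, rapamycin Atg7+/- replicates 1, 2 and 4 and rapamycin Atg7-/- replicates 3 and 4. It was 5 without rapamycin Atg7+/- replicate 3 or rapamycin Atg7-/- replicate 1 or 2.

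**Figure D1:**
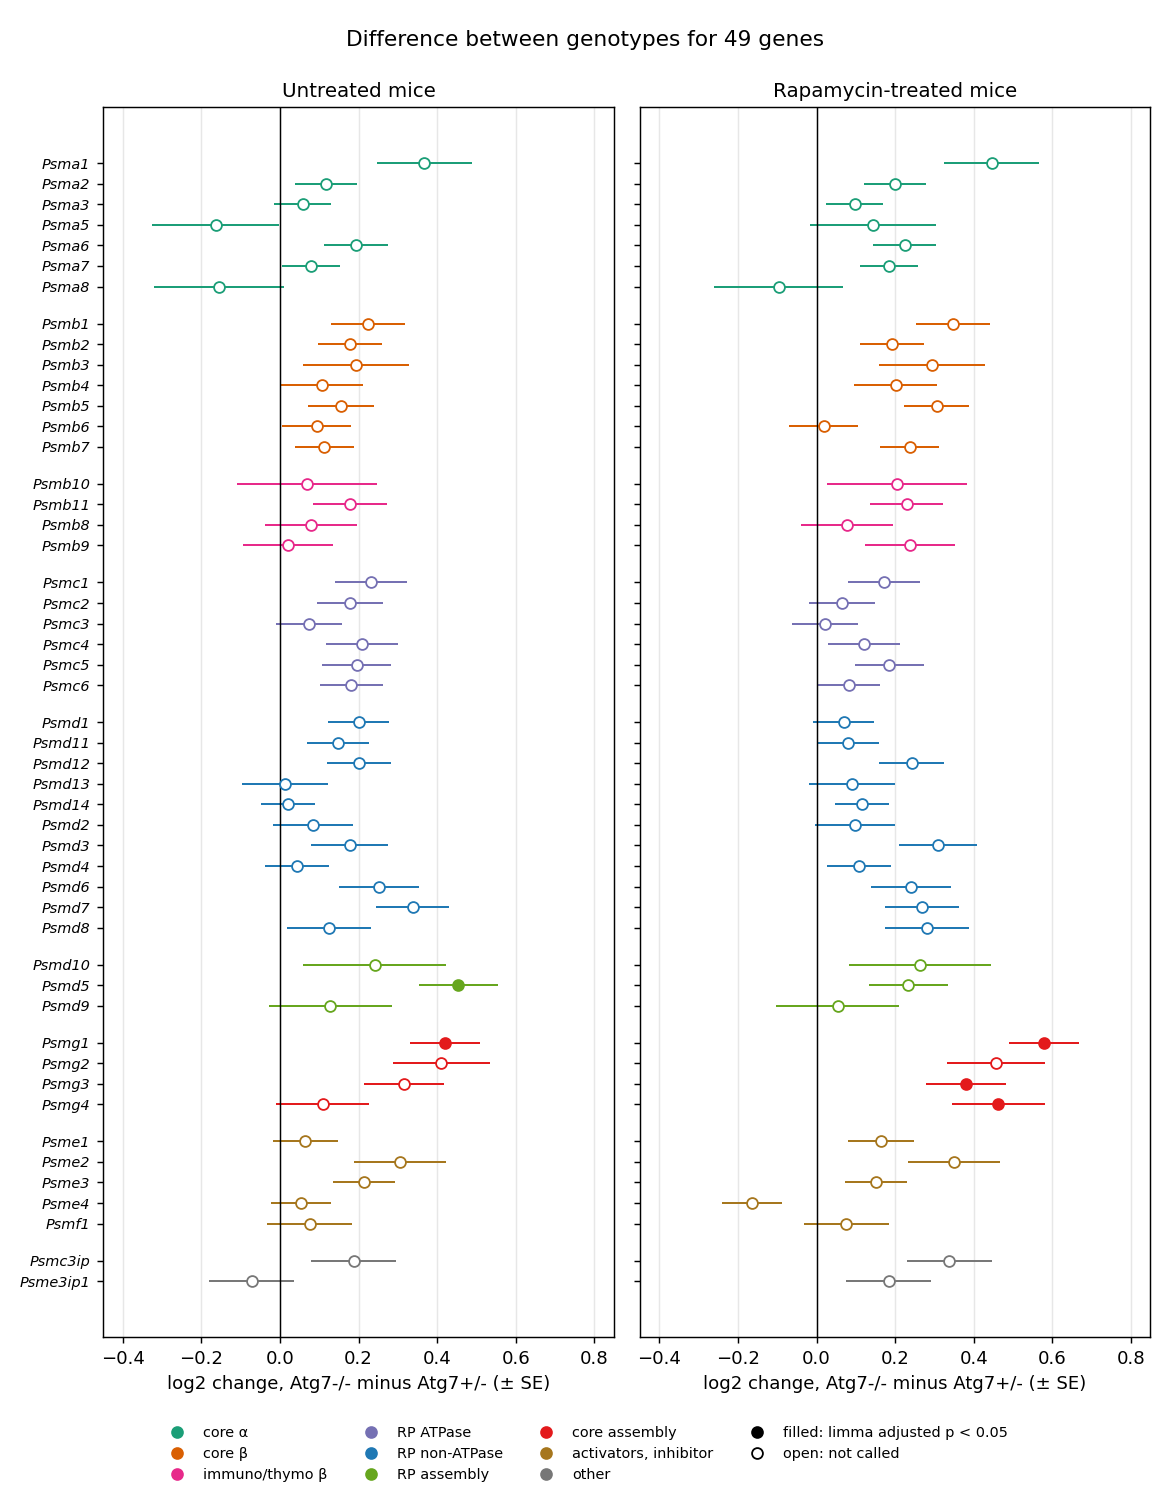
Log2 change, Atg7-/- minus Atg7+/-, with its SE for each of the 49 genes, in untreated mice (left) and under rapamycin (right), coloured by class; filled points were called. Points lie to the right of 0 for 46 genes at left and 47 at right, and the filled points are Psmg1 and Psmd5 at left and Psmg1, Psmg3 and Psmg4 at right.

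Markers of Treg cells and of other cells moved with genotype as well, in both directions. Of the 8 Treg markers, Foxp3 itself fell in untreated Atg7-/- cells, from a mean of 11.3 to 10.9 (-0.40, adjusted p = 0.0355), and differed by -0.35 under rapamycin (adjusted p = 0.0662). Cd3g, a chain of the antigen receptor complex, rose under rapamycin (0.49, adjusted p = 0.0112). Of 5 dendritic cell markers, Zbtb46 fell in untreated Atg7-/- cells (-0.41, adjusted p = 0.0189), and none was called under rapamycin. The rest of that list went the other way in untreated cells, without a call. From Atg7+/- to Atg7-/- cells the group means were 5.68 and 6.09 for Xcr1 and 4.11 and 4.42 for Flt3, each without overlap. They were 4.80 and 4.91 for Siglech and 3.59 and 3.62 for Itgax. The Foxp3 call was lost without any 1 of the untreated Atg7+/- arrays or untreated Atg7-/- replicate 1, 3 or 4 (-0.43 to -0.296), that of Zbtb46 without untreated Atg7+/- replicate 3 or 4 or untreated Atg7-/- replicate 4 (-0.384 to -0.354), and that of Cd3g without rapamycin Atg7+/- replicate 2 (0.446). The log2 of the summed signal of 7 CD8 T and NK cell markers was 8.33 to 8.47 in untreated Atg7+/- arrays and 8.86 to 8.96 in Atg7-/- arrays; under rapamycin it was 7.87 to 8.16 against 8.61 to 8.77. Of the 6 tested, Nkg7, a granule gene, rose in untreated cells (0.86, adjusted p = 0.00855), and Nkg7 and Cd8b1 rose under rapamycin (0.94, adjusted p = 0.00778, and 0.72, adjusted p = 0.0198). The Cd8b1 call was lost without rapamycin Atg7+/- replicate 1 or 2 or rapamycin Atg7-/- replicate 3 (0.571 to 0.747). Cd8a was called in neither (0.07 and -0.18). Eomes lay lower in Atg7-/- cells under both treatments (4.53 to 4.22, and 4.17 to 4.07 under rapamycin), as did Klrd1 (3.17 to 3.12 and 3.46 to 3.11). Ncr1 went from 3.92 to 4.02 and, under rapamycin, from 3.80 to 3.68. Klrb1c went from 3.675 to 3.676 and from 3.51 to 3.60. Group means of Nkg7 and Cd8b1 were 6.48 to 7.85 and those of the other genes at most 4.67, so the summed signal rested mostly on Nkg7 and Cd8b1. The summed signal of 5 neutrophil markers was 6.65 to 7.48 in untreated Atg7+/- arrays and 7.51 to 7.84 in Atg7-/- arrays. Under rapamycin it was 6.56 to 7.25 against 6.62 to 8.54, and none was called under either treatment. The part of these genes in the proteasome differences was not tested. In bulk samples, fewer cells of a type and less RNA per cell cannot be told apart.

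The core assembly chaperones showed the largest class medians of change between genotypes, 0.363 without and 0.46 with rapamycin, over 4 genes. Psmg1, which encodes a chaperone that pairs with the Psmg2 product to build the alpha ring, read 7.74, 7.87, 7.69 and 7.65 in untreated Atg7+/- arrays and 8.15, 8.11, 8.19 and 8.17 in Atg7-/- arrays. With rapamycin it read 7.71, 7.62, 7.81 and 7.59 in Atg7+/- arrays and 8.26, 8.03, 8.37 and 8.37 in Atg7-/- arrays. All Atg7-/- arrays lay above all Atg7+/- arrays, with or without the drug. The change was 0.42 ± 0.0887 (SE, 1.34-fold, adjusted p = 0.0146) in untreated cells and 0.58 ± 0.0887 (1.49-fold, adjusted p = 0.00389) under rapamycin. The first call was lost without untreated Atg7+/- replicate 4 (0.39, adjusted p = 0.0516).

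Psmg2, the partner of Psmg1, read 7.58, 7.57, 7.35 and 7.26 in untreated Atg7+/- arrays and 7.85, 7.65, 7.72 and 8.19 in Atg7-/- arrays. Under rapamycin it read 7.58, 7.37, 7.67 and 7.56 against 7.97, 7.81, 8.27 and 7.95. The genotypes did not overlap under either treatment, yet neither difference passed the test (0.41, adjusted p = 0.0804, and 0.46, adjusted p = 0.0524). Another Psmg2 probe set, tested among all probe sets, gave 0.447 under rapamycin with an adjusted p of 0.0317, where the set used gave 0.457 with 0.0662.

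Psmg3 and Psmg4 encode the other pair of core chaperones. Psmg3 read 7.30, 7.45, 7.35 and 7.17 in untreated Atg7+/- arrays and 7.58, 7.65, 7.63 and 7.68 in Atg7-/- arrays, which did not overlap, although the difference of 0.32 was not called (adjusted p = 0.1). Under rapamycin it read 7.35, 7.32, 7.51 and 7.60 against 7.78, 7.58, 8.08 and 7.86, with an overlap of 1 array on each side. That difference was called (0.38 ± 0.101, adjusted p = 0.0481). The Psmg3 call was lost when any 1 of 15 arrays was left out, the exception being rapamycin Atg7-/- replicate 2; where it was lost the change was 0.297 to 0.432.

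Psmg4 behaved otherwise in untreated cells. It read 7.286, 7.14, 6.998 and 7.11 in untreated Atg7+/- arrays and 7.23, 7.11, 7.16 and 7.47 in Atg7-/- arrays, which overlapped (0.11, adjusted p = 0.694). Under rapamycin it read 7.294, 7.40, 7.62 and 7.49 against 7.80, 7.83, 8.27 and 7.76, all Atg7-/- arrays above all Atg7+/- arrays. The change was 0.46 ± 0.118 (1.38-fold, adjusted p = 0.0393). It fell to 0.343 without rapamycin Atg7-/- replicate 3 (adjusted p = 0.105). The call was also lost without untreated Atg7+/- replicate 2, untreated Atg7-/- replicate 1 or 3, rapamycin Atg7+/- replicate 1, 2 or 4, or rapamycin Atg7-/- replicate 4, with changes of 0.41 to 0.514. The difference in the genotype effect between treatments was 0.35 for Psmg4, with an adjusted p of 0.792.

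**Figure D2:**
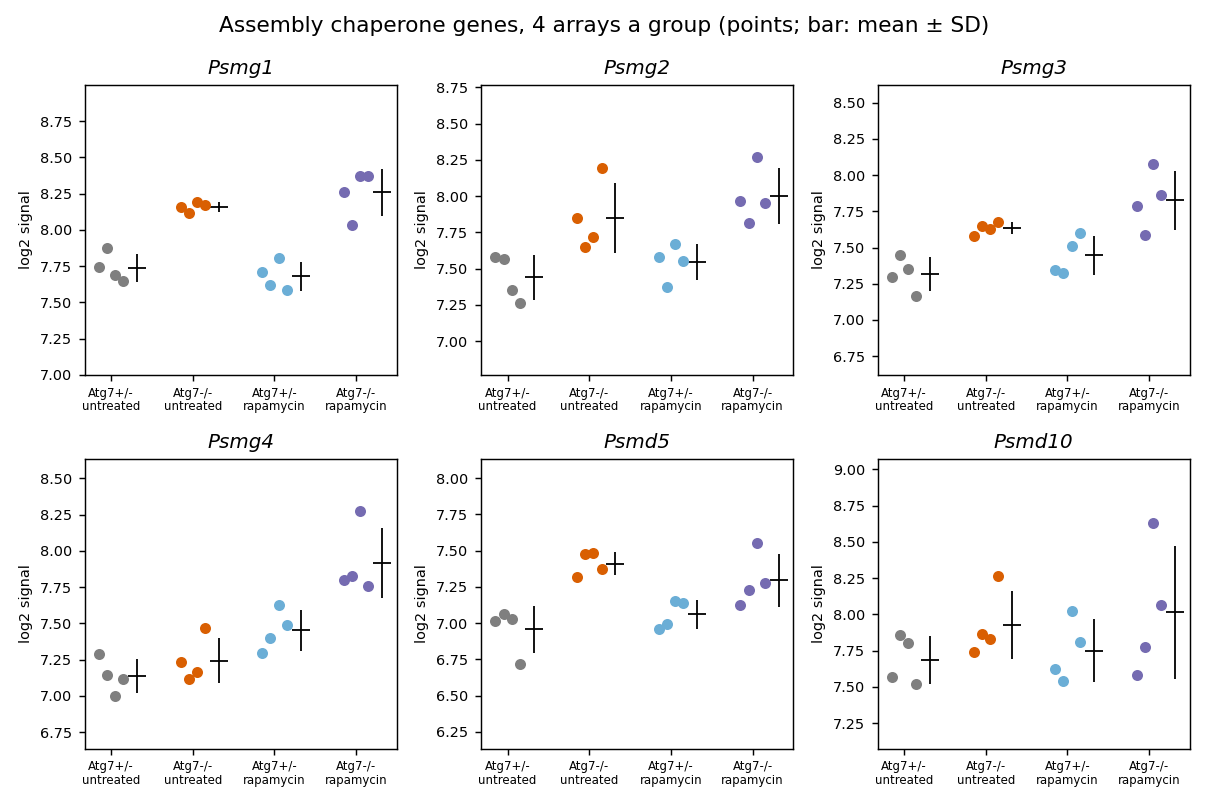
Log2 signal of the core chaperone genes Psmg1 to Psmg4 and the regulatory particle chaperone genes Psmd5 and Psmd10 in each of the 16 arrays, by group, with bars for the mean ± SD. Psmg1 and Psmg2 separate the genotypes under both treatments, and Psmg4 is higher in the rapamycin groups.

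Of the chaperones of the regulatory particle base, Psmd5 rose in untreated Atg7-/- cells. It read 7.02, 7.06, 7.03 and 6.72 in untreated Atg7+/- arrays and 7.32, 7.47, 7.48 and 7.37 in Atg7-/- arrays, with replicate 4 of the controls the lowest. The change was 0.45 ± 0.101 (1.37-fold, adjusted p = 0.0189). It was not called without untreated Atg7+/- replicate 4 (0.375, adjusted p = 0.071) or untreated Atg7-/- replicate 2 or 3 (0.433 and 0.431, adjusted p = 0.0517 and 0.0564). Under rapamycin Psmd5 read 6.96, 6.998, 7.15 and 7.14 against 7.13, 7.23, 7.55 and 7.27, which overlapped (0.23, adjusted p = 0.223). Psmd10, which encodes gankyrin, and Psmd9 were not called in either genotype comparison, with changes of 0.24 and 0.13 in untreated cells and 0.26 and 0.05 under rapamycin.

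None of the 14 core subunit genes was called between genotypes, although 12 lay above 0 in untreated cells and 13 under rapamycin. Psma1, an alpha ring gene, came nearest among the alpha genes. It read 9.03, 9.16, 9.13 and 9.04 in untreated Atg7+/- arrays and 9.36, 9.39, 9.46 and 9.61 in Atg7-/- arrays (0.37, adjusted p = 0.111), and under rapamycin the change was 0.45 with overlapping arrays (adjusted p = 0.0518). Psmb1, a structural beta ring gene, differed by 0.22 (adjusted p = 0.221) and, under rapamycin, 0.35 (adjusted p = 0.0528), without overlap in either. Psma5 and Psma8, the latter a testis form of an alpha subunit, were dim, with group means up to 4.76 and 3.67, and the signs of their untreated changes were negative (-0.16 each). Another Psma5 probe set, dimmer still, gave 0.0558 in untreated cells and -0.284 under rapamycin, where the set used gave 0.143. With rapamycin in Atg7+/- cells that other set gave 0.361 (adjusted p = 0.0208 among all probe sets) and the set used 0.064.

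The regulatory particle genes were not called between genotypes either. All 6 ATPase genes lay above 0 in both treatments, and in untreated cells 5 of the 6 had no overlap between genotypes (Psmc1, Psmc2, Psmc4, Psmc5 and Psmc6), against 0 of 6 under rapamycin. Their median change was 0.189 in untreated cells and 0.101 under rapamycin; the difference was not tested as a group, and no single ATPase gene differed in the interaction (smallest adjusted p = 0.906). All 11 non-ATPase genes lay above 0 in both treatments. Psmd7, a partner of the deubiquitinating subunit in the lid, read 9.97, 10.12, 10.16 and 9.99 in untreated Atg7+/- arrays and 10.42, 10.34, 10.26 and 10.56 in Atg7-/- arrays (0.34, adjusted p = 0.0576).

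The cutting subunits of the constitutive and the immunoproteasome gave small differences between genotypes, none of them called. Psmb5, the chymotrypsin-like subunit gene, read 10.60, 10.62, 10.62 and 10.62 in untreated Atg7+/- arrays and 10.75, 10.77, 10.74 and 10.81 in Atg7-/- arrays. Under rapamycin it read 10.51, 10.58, 10.80 and 10.80 against 10.87, 10.89, 11.08 and 11.06. The Atg7-/- arrays were higher under both treatments, by 0.15 (adjusted p = 0.362) and 0.31 (adjusted p = 0.054). Psmb7, the trypsin-like subunit gene, differed by 0.11 and 0.24 without overlap (adjusted p = 0.476 and 0.09), and Psmb6, the caspase-like one, by 0.09 and 0.02 with overlap.

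For Psmb8, the immunoproteasome counterpart of Psmb5, the arrays read 9.14, 9.19, 9.29 and 9.14 in untreated Atg7+/- cells and 9.25, 9.38, 9.23 and 9.22 in Atg7-/- cells. With rapamycin they read 9.01, 8.88, 9.29 and 9.18 against 8.77, 9.23, 9.36 and 9.30. The groups overlapped, and the genotype change was 0.08 under each treatment (adjusted p = 0.791 and 0.801). Psmb9, the counterpart of Psmb6, changed by 0.02 (adjusted p = 0.96) and 0.24 (adjusted p = 0.279). Psmb10, the counterpart of Psmb7, changed by 0.07 (adjusted p = 0.893) and 0.21 (adjusted p = 0.605). Rapamycin Atg7-/- replicate 1 was the lowest of its group for all 3 genes, at 8.77, 10.45 and 8.25. Psmb11, the thymus form, was dim, with a highest group mean of 3.67, and was not called.

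The mean of the 3 immunoproteasome genes minus that of the 3 constitutive genes was -0.22 ± 0.0592 (SD, n = 4) in untreated Atg7+/- arrays and -0.28 ± 0.0274 in untreated Atg7-/- arrays. With rapamycin it was -0.27 ± 0.1 and -0.28 ± 0.277. The groups overlapped, and values in the last group ran from -0.69 to -0.10. Signals of different probe sets are not comparable, so the sign of this difference does not say which form was more abundant.

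**Figure D3:**
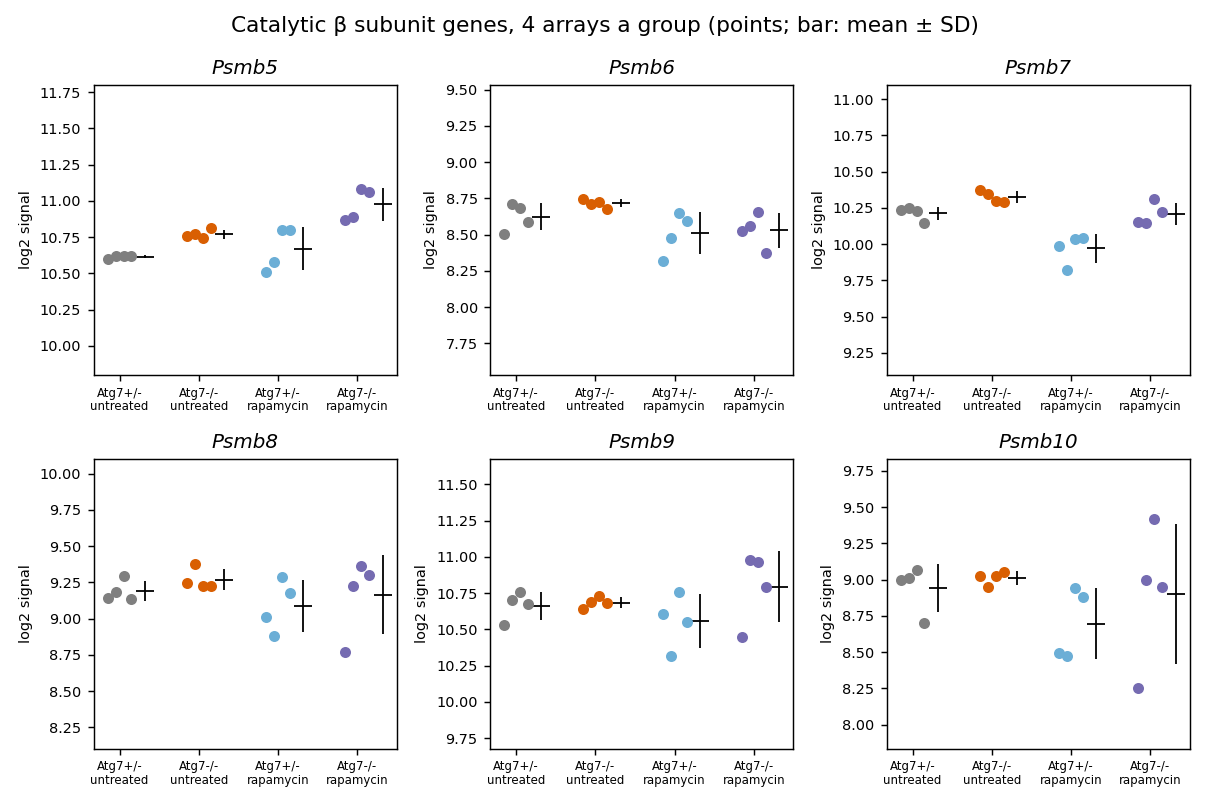
Log2 signal of the constitutive (Psmb5, Psmb6, Psmb7) and immunoproteasome (Psmb8, Psmb9, Psmb10) cutting subunit genes in each of the 16 arrays, by group, with bars for the mean ± SD. Psmb5 and Psmb7 separate the genotypes, whereas the immunoproteasome genes overlap and spread most in rapamycin Atg7-/- cells.

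Among the activators, none was called between genotypes. Psme1 and Psme2 encode the interferon-inducible PA28 alpha and beta chains. Psme2 changed by 0.30 (adjusted p = 0.176, no overlap) in untreated cells and by 0.35 under rapamycin (adjusted p = 0.107), and Psme1 by 0.06 and 0.16. Psme3, the nuclear PA28 gamma gene, read 8.79, 8.79, 8.79 and 8.89 in untreated Atg7+/- arrays and 9.01, 9.09, 8.99 and 9.02 in Atg7-/- arrays (0.21, adjusted p = 0.157). Psme4, which encodes PA200, changed by 0.05 and -0.16, and Psmf1, an inhibitor gene, by 0.08 under each treatment, with overlap in each case. Of the genes that share only the symbol stem, Psmc3ip changed by 0.19 and 0.34 (adjusted p = 0.39 and 0.09) and Psme3ip1 by -0.07 and 0.18.

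With rapamycin a few subunit genes were lower in both genotypes. In Atg7+/- cells 7 of 49 members fell (Psmd3, Psma1, Psmd12, Psmc5, Psme3, Psma2 and Psmb7) and 0 rose, where 14.1% of all genes were called (8.11% lower, 6.03% higher). In Atg7-/- cells 6 fell (Psmd3, Psma1, Psme3, Psmc5, Psmd12 and Psmc1) and 2 rose (Psmg4 and Psme2), where 20% of all genes were called (11.1% lower, 8.83% higher). The share of members called was near that of all genes in Atg7+/- cells and below it in Atg7-/- cells. Of the brightest 3352 genes, in which 35 members lie, 22% were called in Atg7+/- cells (14.1% lower, 7.94% higher). In Atg7-/- cells 26.8% of them were called (14.8% lower, 12% higher). The share of members called was below that of these bright genes in both genotypes. The 7 calls became 4 without rapamycin Atg7+/- replicate 1 or 2, and the 8 became 5 without untreated Atg7-/- replicate 2 or 3 or rapamycin Atg7-/- replicate 2. The median change was -0.0577 in Atg7+/- cells and -0.078 in Atg7-/- cells, against -0.0345 and -0.0399 over all genes. Arrays did not overlap for 12 members lower and 2 higher in Atg7+/- cells, against 13.1% and 9.64% of all genes (22.7% in either direction). In Atg7-/- cells this held for 8 lower and 4 higher, against 11.6% and 8.76% (20.4%).

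The rapamycin comparisons of the genotypes share no array. Over the 49 members their changes had a Pearson correlation of 0.855, with the same sign in 39 (79.6%), against 0.746 and 75.3% over all genes tested. The points are genes of the same libraries and are not independent. The same 5 genes, Psmd3, Psma1, Psmd12, Psmc5 and Psme3, fell in both genotypes.

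**Figure D4:**
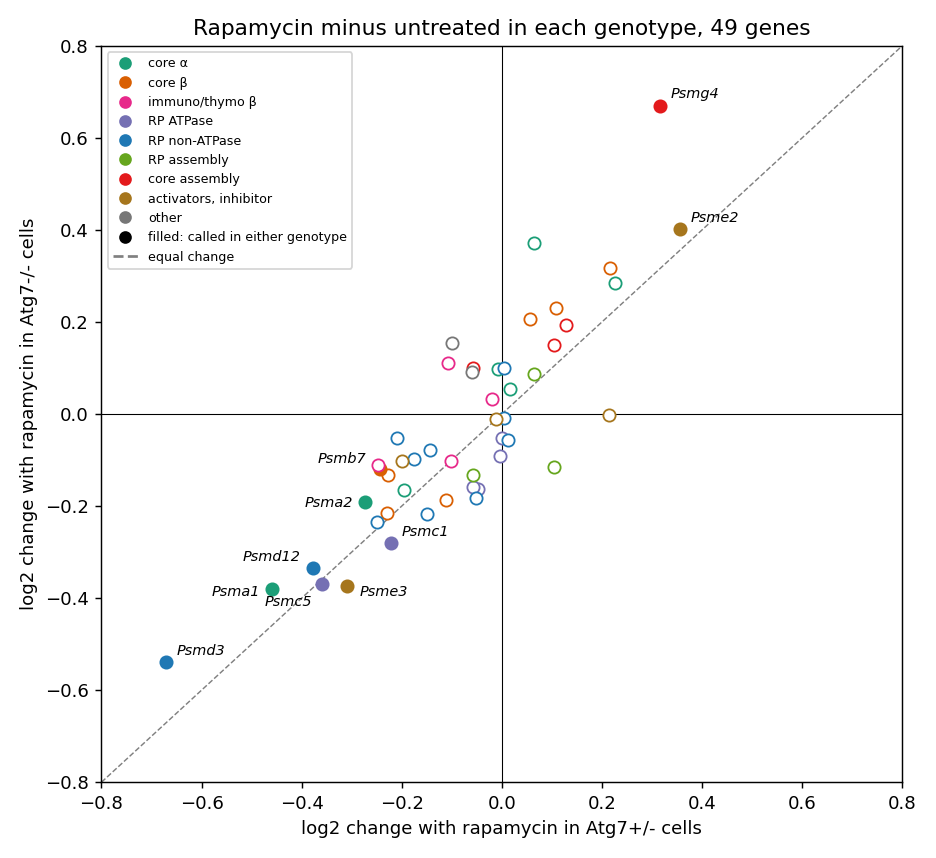
Log2 change with rapamycin in Atg7+/- cells (horizontal) and Atg7-/- cells (vertical) for the 49 genes, coloured by class, with called genes filled and the line of equal change dashed. Psmd3 lies lowest at -0.67 and -0.54, and Psmg4 highest on the vertical axis, at 0.67; on the horizontal axis it lies at 0.32, below Psme2 at 0.36.

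Psmd3, a subunit gene of the lid, showed the largest fall. In Atg7+/- cells it read 8.25, 8.28, 8.31 and 8.16 untreated and 7.46, 7.53, 7.69 and 7.63 with rapamycin. In Atg7-/- cells it read 8.52, 8.51, 8.48 and 8.19 untreated and 7.76, 7.73, 8.09 and 7.97 with rapamycin. No rapamycin array reached an untreated array of its genotype. The changes were -0.67 ± 0.0989 (1.59-fold lower, adjusted p = 0.000343) and -0.54 ± 0.0989 (1.45-fold lower, adjusted p = 0.00116).

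Psmd12, another lid gene, read 9.88, 9.93, 9.90 and 9.89 in untreated Atg7+/- arrays and 9.45, 9.48, 9.55 and 9.62 with rapamycin. In Atg7-/- arrays it read 10.04, 10.01, 10.04 and 10.31 against 9.77, 9.69, 9.88 and 9.73. Both falls were free of overlap, at -0.38 ± 0.0821 (adjusted p = 0.00601) and -0.34 ± 0.0821 (adjusted p = 0.00817). The other 9 non-ATPase genes were not called in either genotype. Among them Psmd11 changed by -0.15 and -0.22, Psmd2, a base scaffold gene, by -0.25 and -0.23, and Psmd14, the deubiquitinating subunit gene, by 0.0045 and 0.10.

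Psmc5, an ATPase gene, read 10.34, 10.42, 10.38 and 10.34 in untreated Atg7+/- arrays and 9.98, 9.84, 10.16 and 10.06 with rapamycin. In Atg7-/- arrays it read 10.59, 10.54, 10.54 and 10.58 against 10.03, 10.15, 10.41 and 10.19. All rapamycin arrays were below the untreated ones, with changes of -0.36 ± 0.0885 (adjusted p = 0.0121) and -0.37 ± 0.0885 (adjusted p = 0.00703). All 6 ATPase genes lay below 0 in both genotypes, from -0.36 to -0.00023 in Atg7+/- cells and from -0.37 to -0.05 in Atg7-/- cells. Psmc1 fell in Atg7-/- cells (-0.28, adjusted p = 0.0378) with overlapping arrays; the call was lost without any 1 of 6 arrays, untreated Atg7-/- replicates 1, 2 and 3 and rapamycin Atg7-/- replicates 1, 2 and 4 (-0.289 to -0.226). In Atg7+/- cells its change was -0.22 (adjusted p = 0.114).

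In the core, Psma1 read 9.03, 9.16, 9.13 and 9.04 in untreated Atg7+/- arrays and 8.43, 8.43, 8.92 and 8.74 with rapamycin. In Atg7-/- arrays it read 9.36, 9.39, 9.46 and 9.61 against 8.80, 9.09, 9.35 and 9.07. Replicates 1 and 2 of the rapamycin Atg7+/- group were the lowest of all 16. The changes were -0.46 ± 0.121 (adjusted p = 0.0178) and -0.38 ± 0.121 (adjusted p = 0.0346). Without rapamycin Atg7+/- replicate 1 or 2 the first was -0.392 or -0.39 (adjusted p = 0.0612 and 0.0641), and the second lost its call without any 1 of untreated Atg7-/- replicates 2 to 4 or rapamycin Atg7-/- replicates 1, 2 and 4 (-0.402 to -0.289).

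Psma2, another alpha ring gene, read 10.05, 9.99, 10.001 and 10.10 in untreated Atg7+/- arrays and 9.77, 9.65, 9.78 and 9.85 with rapamycin, without overlap (-0.27 ± 0.0793, adjusted p = 0.0287). It lost its call without untreated Atg7+/- replicate 1, 3 or 4 or rapamycin Atg7+/- replicate 1 or 2 (-0.284 to -0.235). The change in Atg7-/- cells was -0.19 (adjusted p = 0.0969). Psmb7 read 10.23, 10.25, 10.22 and 10.14 in untreated Atg7+/- arrays and 9.98, 9.82, 10.03 and 10.04 with rapamycin (-0.24 ± 0.0754, adjusted p = 0.0391). Its call was lost without any 1 of the untreated Atg7+/- arrays or rapamycin Atg7+/- replicate 1 or 2 (-0.265 to -0.193). Its change in Atg7-/- cells was -0.12 (adjusted p = 0.282).

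Psmb5 and Psmb6, the remaining constitutive cutting subunit genes, did not pass the test with rapamycin. Psmb5 changed by 0.06 in Atg7+/- cells and by 0.21 without overlap in Atg7-/- cells (adjusted p = 0.702 and 0.0885), and Psmb6 by -0.11 and -0.19 (adjusted p = 0.438 and 0.144). The immunoproteasome genes were not called either. Psmb8 changed by -0.10 in each genotype, Psmb9 by -0.11 and 0.11, and Psmb10 by -0.25 and -0.11, with overlapping arrays in every case (smallest adjusted p = 0.388). Their SEs of 0.114 to 0.178 exceeded the 0.0754 to 0.0881 of the constitutive genes. Without rapamycin Atg7-/- replicate 1 the Psmb8 change in Atg7-/- cells was 0.0296 and that of Psmb10 was 0.107.

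The activator genes moved in different directions with rapamycin. Psme3 read 8.79, 8.79, 8.79 and 8.89 in untreated Atg7+/- arrays and 8.47, 8.53, 8.50 and 8.52 with rapamycin, and 9.01, 9.09, 8.99 and 9.02 against 8.85, 8.57, 8.51 and 8.69 in Atg7-/- arrays. Both falls were without overlap, at -0.31 ± 0.0792 (adjusted p = 0.0148) and -0.37 ± 0.0792 (adjusted p = 0.00329). Psme2 read 7.19, 7.43, 7.27 and 7.15 in untreated Atg7+/- arrays and 7.56, 7.54, 7.81 and 7.56 with rapamycin, which did not overlap but missed the threshold (0.36 ± 0.117, adjusted p = 0.0509). In Atg7-/- arrays it read 7.73, 7.51, 7.50 and 7.52 against 7.73, 8.05, 8.31 and 7.79, and rose by 0.40 ± 0.117 (adjusted p = 0.0224). That call was lost without untreated Atg7-/- replicate 2 or 3 (0.384 and 0.379) or rapamycin Atg7-/- replicate 2 or 3 (0.373 and 0.289).

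Psme1, whose product assembles with that of Psme2, changed by -0.20 in Atg7+/- cells without overlap (adjusted p = 0.119) and by -0.10 in Atg7-/- cells (adjusted p = 0.415). Psme4 changed by 0.22 (adjusted p = 0.0716) and -0.0027, and Psmf1 by -0.01 in each genotype. Psmg4 rose most with rapamycin in Atg7-/- cells; in Atg7+/- cells the change of Psme2 was above that of Psmg4, and neither was called. Its arrays, given above, did not overlap in either genotype, with changes of 0.32 ± 0.118 in Atg7+/- cells (adjusted p = 0.0811) and 0.67 ± 0.118 in Atg7-/- cells (1.59-fold, adjusted p = 0.000834). The other core assembly genes were not called, with changes from -0.06 to 0.13 in Atg7+/- cells and 0.10 to 0.19 in Atg7-/- cells. Psmd5 changed by 0.10 and -0.12.

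Treg markers moved with rapamycin too. Of the 8 markers tested, Cd4, Cd3e and Cd3g fell and Tnfrsf18 rose in both genotypes, and Ctla4 fell in Atg7-/- cells, while the summed signal was 13.84 to 13.93 in untreated Atg7+/- arrays and 13.81 to 13.9 with rapamycin. In Atg7-/- arrays it was 13.81 to 13.95 and 13.76 to 13.81. The summed B cell marker signal was 6.87 to 7.01 against 6.57 to 6.87 in Atg7+/- arrays and 6.84 to 7.02 against 6.61 to 6.81 in Atg7-/- arrays. That of the CD8 T and NK cell markers, given above by group, was lower with rapamycin in each genotype without overlap, with 0 of 6 called. The summed macrophage and monocyte signal was 7.9 to 8.11 in untreated Atg7+/- arrays and 8.13 to 8.57 with rapamycin, and in Atg7-/- arrays 8.05 to 8.25 and 7.49 to 8.73, with 0 of 5 called. Among dendritic cell markers Xcr1 fell in both genotypes (-1.10 in each, adjusted p = 0.000251 and 0.000146) and Flt3 rose in Atg7+/- cells (0.55, adjusted p = 0.0142). The rest of that list was not called. Siglech went from 4.80 to 5.49 in Atg7+/- cells and from 4.91 to 5.11 in Atg7-/- cells. Zbtb46 went from 6.55 to 6.31 and from 6.14 to 6.01, and Itgax from 3.59 to 3.46 and from 3.62 to 3.38. The summed dendritic signal was 7.6 to 7.73 against 7.39 to 7.76 in Atg7+/- arrays. In Atg7-/- arrays it was 7.56 to 7.75 against 7.11 to 7.61. Pax5, a B cell marker, fell in both genotypes (-0.30 and -0.52), and Blnk in Atg7+/- cells (-0.37, adjusted p = 0.0455). Of the other B cell markers, Cd79b and Ebf1 lay lower and Ms4a1 higher in both genotypes, without a call. Cd79a went from 4.57 to 4.55 in Atg7+/- cells and from 4.53 to 4.62 in Atg7-/- cells. Mpo, a neutrophil marker, fell in Atg7-/- cells (-0.40, adjusted p = 0.0377). There S100a8 and S100a9 lay lower too, but Ly6g (3.56 to 3.78) and Elane (3.89 to 4.04) lay higher. The summed neutrophil signal there was 7.51 to 7.84 untreated and 6.62 to 8.54 with rapamycin. Leaving out 1 array ended the calls of Tnfrsf18 for 3 arrays in Atg7+/- cells and 2 in Atg7-/- cells. In Atg7+/- cells it ended those of Pax5 for 7, Blnk for 10 and Flt3 for 1 (untreated Atg7+/- replicate 3). The calls of Cd3e, Cd3g and Mpo in Atg7-/- cells were ended by 2, 4 and 5 arrays, while the other marker calls with rapamycin held without each of the 16 arrays. The part of these genes in the proteasome changes was not tested.

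The rapamycin effect was not shown to differ between genotypes for any member. In the interaction 0 of 49 members and 0% of all genes were called, and 1 member, Psmg4, had an unadjusted p under 0.05. The median over the members was 0.0457 against 0.00288 over all genes. The 6 ATPase genes all lay below 0 (-0.11 to -0.0098) and the 7 alpha ring genes all above 0 (0.03 to 0.31), with no call. The value of 0.31 was that of the dim gene Psma5, whose other probe set gave -0.34. The largest difference of the opposite sign to Psmg4 was that of Psmd5 (-0.22, adjusted p = 0.827), followed by Psme4 (-0.22, adjusted p = 0.797).

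Class means were set side by side by group. The mean over the 4 core assembly genes was 7.41 ± 0.0998 (SD, n = 4) in untreated Atg7+/- arrays and 7.72 ± 0.108 in their Atg7-/- counterparts. With rapamycin it was 7.53 ± 0.0973 and 7.9998 ± 0.181, and the genotypes did not overlap under either treatment. The mean over the 11 non-ATPase genes was 9.23 ± 0.0411 and 9.38 ± 0.0284 in untreated cells, and 9.05 ± 0.0871 and 9.22 ± 0.114 with rapamycin. The mean over all 47 proteasome genes was 8.64 to 8.75 in untreated Atg7+/- arrays and 8.83 to 8.87 in Atg7-/- arrays, and 8.53 to 8.72 against 8.71 to 8.97 with rapamycin, where the genotypes overlapped slightly.

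**Figure D5:**
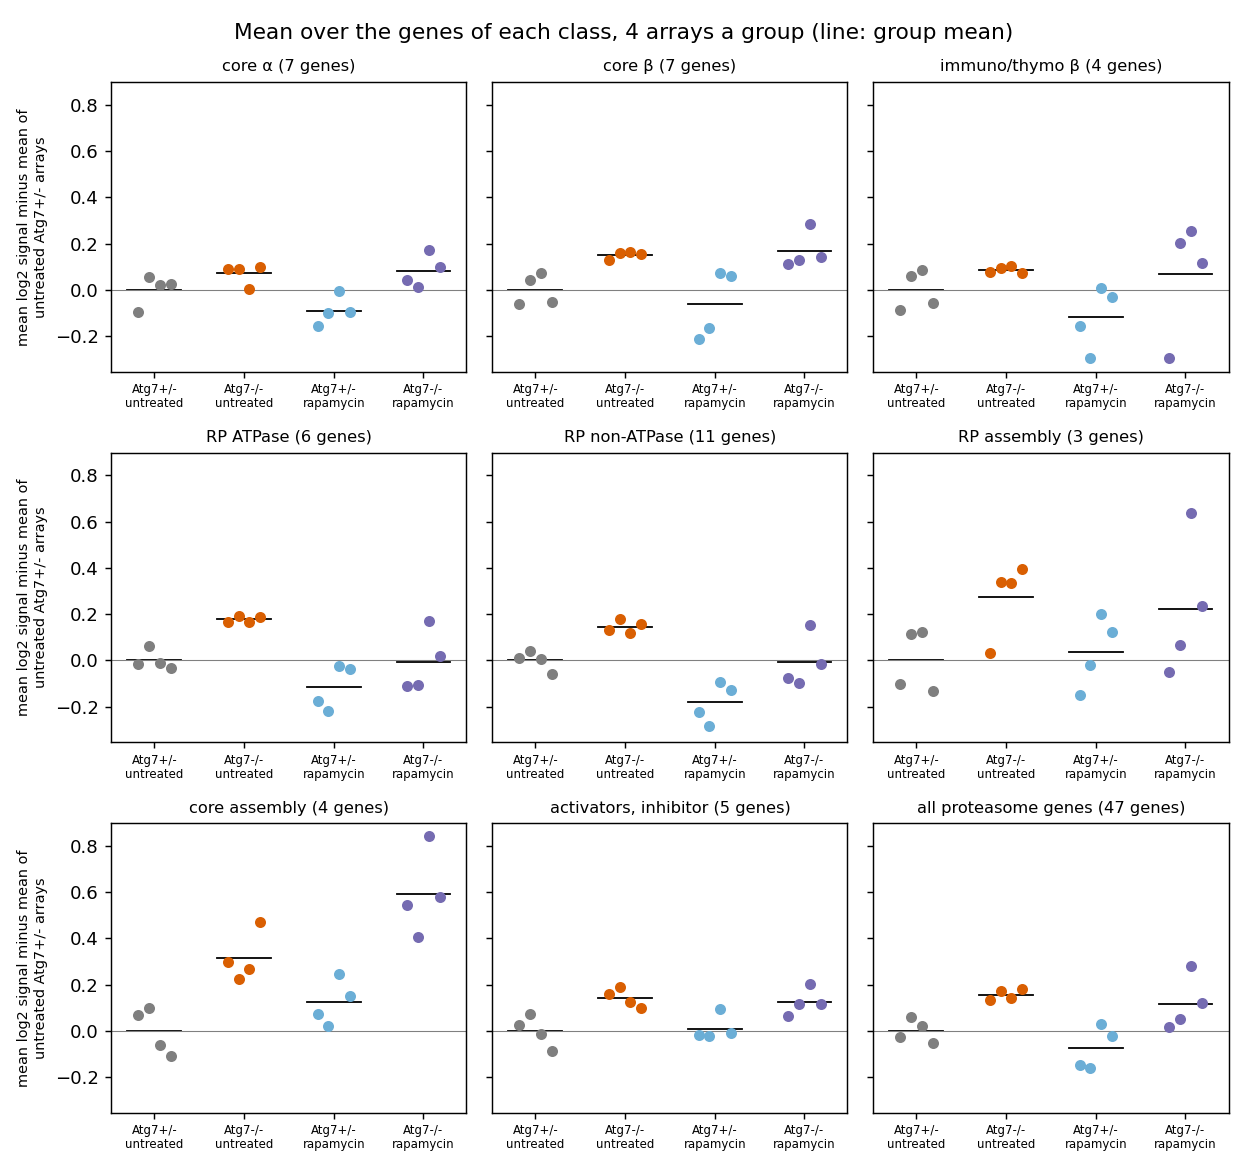
Mean log2 signal over the genes of each class in each array, minus the mean of the untreated Atg7+/- arrays; lines mark group means. The core assembly means of all Atg7-/- arrays lie above those of the Atg7+/- arrays of the same treatment, with group means of 7.72 against 7.41 and 7.9998 against 7.53.

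Proteasome genes with other names were measured as well, 11 of 13 listed. Sem1, a small lid subunit gene, read 10.58, 10.57, 10.71 and 10.63 in rapamycin Atg7+/- arrays and 10.90, 10.95, 11.12 and 10.97 in Atg7-/- arrays, and rose with genotype there (0.36, adjusted p = 0.0339) as the only called gene of the list. It also rose with rapamycin in Atg7-/- cells (0.34, adjusted p = 0.0123), together with Zfand2a, a gene for a proteasome-binding stress protein (0.37, adjusted p = 0.0469), and Akirin2, which encodes a nuclear import factor of proteasomes (0.29, adjusted p = 0.0158). Akirin2 was also the only one called in Atg7+/- cells (0.25, adjusted p = 0.0488). Over all genes 3.24% were called between genotypes under rapamycin, 20% with rapamycin in Atg7-/- cells and 14.1% in Atg7+/- cells. The shares called higher were 1.91%, 8.83% and 6.03%. The Akirin2 call in Atg7+/- cells was lost without any 1 of 14 arrays, all but rapamycin Atg7-/- replicates 1 and 3. That of Zfand2a was lost without any 1 of 12, all but untreated Atg7+/- replicates 1 and 2, untreated Atg7-/- replicate 1 and rapamycin Atg7-/- replicate 2. The genotype call of Sem1 was lost without rapamycin Atg7+/- replicate 1, 2 or 4 or rapamycin Atg7-/- replicate 3 or 4 (0.317 to 0.366). Pomp, the core maturation factor gene, read 10.01, 10.11, 9.95 and 9.82 in untreated Atg7+/- arrays and 10.25, 10.19, 10.06 and 10.25 in Atg7-/- arrays (0.22, adjusted p = 0.275), and changed by 0.30 under rapamycin (adjusted p = 0.108). Usp14 had the smallest p of the list between untreated genotypes, with means of 8.13 in Atg7+/- and 8.36 in Atg7-/- cells (adjusted p = 0.155).

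Of 13 regulators of proteasome gene transcription, 0 were called between genotypes, where 3.14% of all genes were called without and 3.24% with rapamycin. Nfe2l1, whose product raises proteasome gene transcription when the proteasome is impaired, lay at group means of 8.21 to 8.24, with changes of -0.02 to 0.01 in the 4 comparisons. Nfe2l2, the related oxidative stress regulator, fell with rapamycin in Atg7+/- cells (-0.37, adjusted p = 0.0265), though not without untreated Atg7+/- replicate 2 or 3 or rapamycin Atg7+/- replicate 1 or 2 (-0.363 to -0.312). So did Mafk, a small Maf partner gene (-0.46, adjusted p = 0.00325). In Atg7-/- cells they changed by -0.18 and -0.22 (adjusted p = 0.233 and 0.0882), and Stat3 fell by 0.59 (adjusted p = 0.00141). Foxm1 had the smallest p between untreated genotypes (0.37, adjusted p = 0.0982). Between genotypes under rapamycin the smallest p was that of Nfe2l3 (-0.477, adjusted p = 0.0566).

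Of 12 genes of ubiquitin supply and delivery, 0 were called between genotypes, against the same 3.14% and 3.24% of all genes. With rapamycin 2 rose and 4 fell in Atg7+/- cells and 2 rose and 5 fell in Atg7-/- cells, where 14.1% and 20% of all genes were called (6.03% higher and 8.11% lower, and 8.83% higher and 11.1% lower). The fallers in both included Nploc4, a cofactor gene of the p97 segregase (-0.39, adjusted p = 0.0058, and -0.56, adjusted p = 0.000253), and the shuttle factor gene Ubqln4 (-0.55, adjusted p = 0.00624, and -0.42, adjusted p = 0.0216). Faf1, a p97 adaptor gene, and Nbr1, an autophagy receptor gene, rose in both by 0.42 to 0.46; the Nbr1 call in Atg7+/- cells was lost without untreated Atg7+/- replicate 1 or rapamycin Atg7+/- replicate 1 or 4 (0.391 to 0.41). Usp5 fell with rapamycin in Atg7-/- cells, from a mean of 7.09 to 6.66, and kept its call when any 1 array was left out. It also had the smallest p of the list between untreated genotypes (0.263, adjusted p = 0.151). Sqstm1, the p62 receptor gene, was not called, at -0.14 in each genotype comparison and 0.23 with rapamycin in each genotype.

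Class I antigen presentation draws on peptides cut by the proteasome. Of 14 such genes, 0 rose and 2 fell in untreated Atg7-/- cells, where 3.14% of all genes were called (1.75% higher, 1.39% lower). Of the 14, 3 lay above 0, against 55.5% of all genes. Irf1, an interferon regulatory factor gene, read 8.68, 8.74, 8.75 and 8.85 in Atg7+/- arrays and 8.20, 8.50, 8.36 and 7.97 in Atg7-/- arrays (-0.50, adjusted p = 0.0189), and Tapbpl, a peptide editor gene, fell by 0.39 (adjusted p = 0.0329). The Irf1 call was lost without untreated Atg7+/- replicate 4 or untreated Atg7-/- replicate 1 or 4 (-0.481 to -0.407), and the Tapbpl call without any 1 of the untreated Atg7+/- arrays or untreated Atg7-/- replicate 1 or 4 (-0.414 to -0.326). Both rose with rapamycin in Atg7-/- cells, by 0.60 (adjusted p = 0.00138) and 0.53 (adjusted p = 0.001). So did Tap1, a peptide transporter gene that lies beside Psmb8 and Psmb9 on chromosome 17 (0.31, adjusted p = 0.0315). Tap1 read 9.65, 9.67, 9.68 and 9.29 in untreated Atg7-/- arrays and 9.74, 10.06, 9.81 and 9.95 with rapamycin. Its call was not tested with arrays left out. Of the 14, 0 rose and 3 fell with rapamycin in Atg7+/- cells, and 3 rose and 3 fell in Atg7-/- cells. Over all genes 14.1% were called in Atg7+/- cells (6.03% higher, 8.11% lower) and 20% in Atg7-/- cells (8.83% higher, 11.1% lower). Calr, a chaperone gene of class I loading, fell with rapamycin in both genotypes (-0.37, adjusted p = 0.00774, and -0.39, adjusted p = 0.00353). H2-Q4, a class I gene, fell by 0.63 in Atg7+/- cells (adjusted p = 0.00326). In Atg7-/- cells it fell by 0.36 (adjusted p = 0.0457), a call lost without any 1 of 10 arrays (untreated Atg7+/- replicates 2 to 4, untreated Atg7-/- replicates 1, 3 and 4, rapamycin Atg7+/- replicate 4 and rapamycin Atg7-/- replicates 1 to 3). Pdia3 fell with rapamycin in Atg7+/- cells, from a mean of 10.04 to 9.74, a call lost without any 1 of 7 arrays (-0.316 to -0.273). Between genotypes under rapamycin none of the list was called, and the smallest p was that of H2-T23 (0.419, adjusted p = 0.101). Tap2, on the other side of Psmb8, changed by -0.11 to 0.11 in the 4 comparisons.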

How the data were processed

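The authors deposited log2 signals of 41345 probe sets on each array; the submitters' processing notes name RMA and Partek 6.6, with no settings. The base of the logarithm was taken as 2, and the genome build is not given in the sources used here. Probe sets were named through GEO's platform annotation (23521 with 1 symbol, 1814 with several, 16010 not listed), and the brightest stood for each of 22180 genes. Genes with a highest group mean above 3.549, the 30th percentile of all values, were tested (16760). With limma 3.58.1 (R 4.3.3), the means of the 4 groups were fitted to the 16 arrays together (lmFit, eBayes; two-sided; Benjamini-Hochberg; called at an adjusted p under 0.05), a procedure tested on simulated data. SEs are those of this fit. The labels do not say that replicates were separate mice, so p-values cover the spread between samples alone, part of which may be technical; the number of arrays limits the precision.

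The members and gene lists were chosen with earlier results of these data known. Named genes are the cutting subunits, activators, Psmf1, Psmd5, Nfe2l1, Nfe2l2, Pomp and Sqstm1, with up to 4 called genes of largest change, or the smallest p, per class, list and comparison. Some genes picked by the smallest p alone, and not called, are not described. Psmg2, Psmg3 in untreated cells, Psmd2, Psmd9, Psmd10, Psmd11, Psmd14, Tap1, Tap2, Ubqln4 in Atg7-/- cells and the ATPase genes beyond Psmc1 and Psmc5 were named outside that rule after their values were seen. The calls of Tap1 and of Ubqln4 in Atg7-/- cells were not tested with arrays left out. Of the listed genes, 11 of 13, 13 of 14, 12 of 18 and 14 of 17 were matched. Upstream sequences came from RefSeq (GRCm38.p6), for 41 of 49 members. Alternatives covered the probe set rule, the filter, the scaling, the spread estimate, the samples fitted, a replicate block and each array left out.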

Additional observations from a re-analysis of the deposited data

Results flagged for a closer look

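In 18 of 196 combinations of gene and group, and in 3 of 44 class means by group, 1 array stood far from the other 3 for that group's range; chance gives about 5% of each. In untreated Atg7-/- cells replicate 4 was high for Psmc2 (11.37 against 11.26 to 11.27) and Psmd12 (10.31 against 10.01 to 10.04) and low for Psmd3 (8.194 against 8.482 to 8.521). Replicate 1 of that group was high for Psmd4 (9.92) and Psme2 (7.731) and low for Psmc3 (8.966), Psme3ip1 (8.375) and the mean of the regulatory particle assembly genes (6.972 against 7.272 to 7.332). Replicate 2 was high for Psmb8 (9.377), and replicate 3 low for the mean of the alpha ring genes (8.365).

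In untreated Atg7+/- cells replicate 4 was low for Psmd5 (6.72 against 7.015 to 7.062) and Psmd2 (8.959) and high for Psme3 (8.888), and replicate 2 was high for Psma5 (5 against 4.348 to 4.45). In rapamycin Atg7+/- cells replicate 1 was low for Psmd9 (5.791), replicate 2 low for Psmb1 (9.74), and replicate 3 high for Psme2 (7.808) and for the mean of the activator and inhibitor genes (8.16). In rapamycin Atg7-/- cells replicate 3 was high for Psma3 (10.33 against 10.12 to 10.14) and Psmg4 (8.275 against 7.76 to 7.826), and replicate 2 low for Psmc3ip (5.936).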

How the results depend on the processing

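Psmd3, Psmd12, Psmc5 and Psme3 with rapamycin in both genotypes, and Psmg4 with rapamycin in Atg7-/- cells, kept their calls under all 25 alternatives. With each array centred on its median, 0 members were called between untreated genotypes and 1 under rapamycin. The latter count of 3 was 7 with the filter at the 50th percentile, 8 after quantile normalization, 12 with eBayes' trend and robust options, and 0 from only the 8 arrays compared, where Psmg1 had an adjusted p of 0.0602. Rapamycin in Atg7+/- cells gave 11 calls with array weights, and in Atg7-/- cells 13 with trend and robust options. Leaving out 1 array gave 0 to 3 calls between untreated genotypes (median 0.138 to 0.172), 1 to 5 under rapamycin (0.145 to 0.227), 4 to 9 for rapamycin in Atg7+/- cells (-0.0964 to -0.0276), 5 to 9 in Atg7-/- cells (-0.129 to -0.0201) and 0 to 0 for the interaction (-0.0148 to 0.083). Same-numbered arrays deviated together (r over 0.1) in 6 of 24 pairs (-0.0829 to 0.358), and 17 of 48 comparisons put an array closest to its own number. Between the rapamycin groups of the 2 genotypes r was 0.24, 0.192, 0.358 and -0.0658 for replicates 1 to 4. The labels name no pairs, and the main fit took none. Whether the numbers mark pairs in the rapamycin groups was not settled. With the replicate block 2, 3, 7, 8 and 0 members were called in the 5 comparisons. The members were not all the same: between genotypes under rapamycin Psmg4 and Psmg3 lost their calls (adjusted p = 0.0502 and 0.0538) and Psma1 and Psmb5 gained one (0.0292 and 0.0487), and with rapamycin in Atg7+/- cells Psmb7 lost its call (0.0529) and Psme2 gained one (0.0456). The cause of these changes was not tested.

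Signs of changes near 0 turned for Psmb6 between genotypes under rapamycin (-0.0253, array weights) and Nfe2l2 there (-0.0167, array weights); for Psme4 with rapamycin in Atg7-/- cells (0.015 centred, 0.00548 weighted) and Psmf1 there (0.00614 centred); for Nfe2l1 on centring (0.0384 between genotypes under rapamycin, -0.0324 and 0.0132 with rapamycin in Atg7+/- and Atg7-/- cells, 0.0456 in the interaction); and in the interaction for Psma5 (-0.0167, mean of probe sets), Psmb8 (0.0603 centred, 0.0305 weighted), Psmf1 (0.0606 centred, 0.0247 quantile, 0.0151 weighted) and Sqstm1 (-0.0419 weighted). On leaving out 1 array they turned between untreated genotypes for Psmb9 (-0.0256 to 0.0501), Psmb10 (-0.0132 to 0.111), Psmf1 (-0.00534 to 0.128) and Nfe2l1 (-0.0299 to 0.0189), and under rapamycin for Psmb6 (-0.0449 to 0.0704), Nfe2l1 (-0.0688 to 0.0237) and Nfe2l2 (-0.0676 to 0.0708). With rapamycin in Atg7+/- cells they turned for Psme3ip1 (-0.172 to 0.00216), Psmf1 (-0.0921 to 0.0433) and Nfe2l1 (-0.0329 to 0.0596), and in Atg7-/- cells for Psmb8 (-0.168 to 0.0296), Psmb10 (-0.282 to 0.107), Psme4 (-0.025 to 0.012), Psmf1 (-0.0498 to 0.06) and Nfe2l1 (-0.0218 to 0.0207). In the interaction they turned for Psmb8 (-0.0706 to 0.131), Psmb10 (-0.0353 to 0.354), Psme2 (-0.0674 to 0.127), Psmf1 (-0.0548 to 0.0805), Nfe2l1 (-0.0641 to 0.0284), Pomp (-0.0243 to 0.134) and Sqstm1 (-0.109 to 0.103).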
